A study of Mus musculus with 8 samples.

Results

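Potassium channel genes are described here in adrenals of wild-type (WT) mice and of *Sf1:Cre;Prkar1aFl/Fl* mice, their knockout (KO) littermates. The 89 genes are all those with a symbol beginning in Kcn, apart from *Kcnq1ot1*, for which a transcript cluster carrying that single symbol was on the array, out of 21905 gene symbols in all. A transcript cluster is the set of probes summarised as 1 value, and of several clusters with the same symbol the brightest on average was read. The mice were 6-week-old females of mixed genetic background, and whole-gland RNA of 4 of each genotype was read on Affymetrix Mouse Gene 2.0 ST arrays, 1 for each sample. Both alleles of *Prkar1a*, which encodes the regulatory subunit that holds protein kinase A (PKA) inactive, are floxed in the knockout, and *Sf1:Cre* is active in the steroidogenic cells of the cortex from its formation onwards. A whole adrenal also holds medulla, capsule and vessels, and the stated target of the deletion is the cortex.

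Potassium channels let potassium leave the cell and so hold the membrane voltage negative. Zona glomerulosa (ZG) cells of the outer cortex depend on them: leak channels keep these cells close to the potassium equilibrium, and when the channels close, voltage-gated calcium channels open and aldosterone is made. Germline loss of leak channels in mice, and somatic mutations of *KCNJ5* in human adenomas, lead to excess aldosterone. Chromaffin cells of the medulla fire action potentials, whose shape and rate are set by voltage-gated and calcium-activated potassium channels.

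The arrays gave log2 values after robust multi-array averaging (RMA), and every value below is on that scale. A log2 fold change is the knockout mean minus the wild-type mean, with the standard error (SE) from limma, a linear model that shares the variance estimate between clusters. Genes passed at an adjusted p under 0.05 over all 22822 clusters with 1 symbol. Values of different genes come from different probes, and expression levels were not ranked between genes. Levels were set against a common value only for the guide to dimness and the filter by median intensity, both below. Log2 fold changes were compared between genes. *Prkar1a* itself fell by 1.73 (SE 0.12, n = 4 arrays per genotype), with all knockout arrays between 6.92 and 7.35 and all wild-type arrays between 8.70 and 9.11. The steroid hydroxylase *Cyp11b1* (13.11 in wild-type and 13.00 in knockout) and *Th*, the first enzyme of catecholamine synthesis (10.64 and 10.50), showed that cortex and medulla were present in both genotypes. Array medians lay between 5.83 and 5.89, and pairs of arrays correlated at 0.990 to 0.995 (wild-type), 0.991 to 0.995 (knockout) or, across genotypes, 0.978 to 0.984.

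Of the 89 potassium channel genes, 10 were higher and 7 lower in knockout adrenals, and 72 did not pass the test. These are 11.2% and 7.87% of the genes, against 7.35% higher and 6.17% lower among all clusters, or 19.1% against 13.5% in either direction. The median log2 fold change was -0.027 over the 89 genes and -0.020 over all clusters. In 16 of the 17 genes that passed, no knockout array overlapped the wild-type range. Over all 89 genes, 13 lay higher and 10 lower without overlap, against 10% and 8.95% of all clusters. The 72 genes that did not pass had log2 fold changes from -0.60 to 0.46, and 59 of them lay within 0.25 of no change. As a guide to dimness, 95% of 1107 olfactory receptor clusters had a mean under 5.23. In 32 of the 89 genes both genotype means lay under that value, and none of these 32 passed. That is partly built into the rule, since a gene that is brighter in 1 genotype can leave the group. *Kcnh1*, *Kcnk12* and *Kcnj2*, with 1 genotype mean under the value and the other above it, passed and were not counted as dim.

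**Figure D1:**
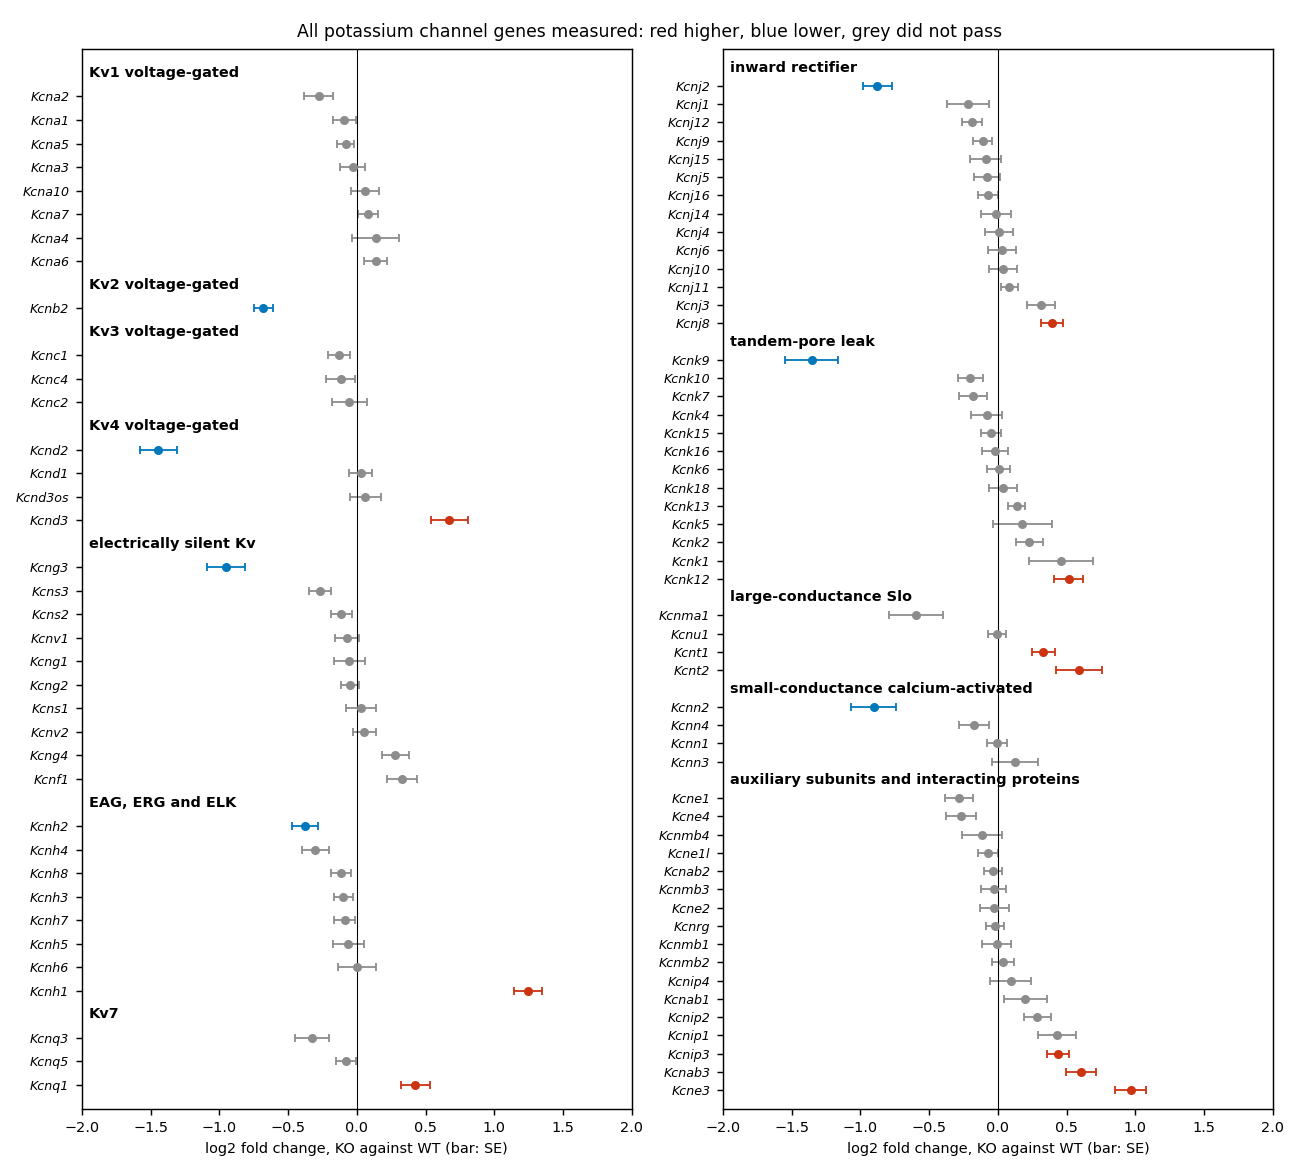
Log2 fold change of each of the 89 potassium channel genes, knockout against wild-type (x axis, log2 scale, bars are SE from limma), grouped by channel family, with genes that passed the test in red (10 higher) or blue (7 lower) and the others in grey. Genes that passed lie in every family but Kv1 and Kv3. They lie beside genes close to 0, except in Kv2, whose only measured gene passed.

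Leak channels of the tandem-pore family, which pass potassium at rest, held one of the largest decreases. *Kcnk9* encodes the acid-sensitive leak channel TASK-3, which with its relative TASK-1 sets the resting voltage of mouse ZG cells. It read 9.73, 9.58, 9.54 and 8.92 in wild-type replicates 1 to 4, and 7.66, 8.45, 8.22 and 8.01 in knockout replicates 1 to 4. Even the lowest wild-type array, replicate 4, lay above all knockout arrays. *Kcnk9* fell by 1.35 (SE 0.19, 2.56-fold, adjusted p = 0.00108 from limma). The gene for TASK-1 was read only by clusters shared with another symbol and has no value here.

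*Kcnk12*, whose product THIK-2 belongs to the same family, moved the other way. Its wild-type arrays read 4.55, 4.92, 4.84 and 4.96 and its knockout arrays 5.13, 5.34, 5.35 and 5.50, so the groups were separate, with all wild-type arrays under the olfactory receptor limit and 3 knockout arrays above it. *Kcnk12* rose by 0.51 (SE 0.11, adjusted p = 0.00915). This call was lost with the methods' *t*-test, rerun here with equal variances (adjusted p = 0.053), and also with unequal variances (0.0727). Here and below, that test is a rerun over the clusters with 1 symbol and not the paper's own result. The other 11 tandem-pore genes did not pass. Among them, *Kcnk1*, which encodes TWIK-1, had the largest difference (0.46, SE 0.23, adjusted p = 0.245, 95% interval -0.052 to 0.97). Its arrays spread from 6.60 to 7.48 in wild-type and from 6.81 to 7.69 in knockout. *Kcnk2*, the stretch-activated TREK-1 (0.23, 95% interval 0.0081 to 0.45, adjusted p = 0.176), and *Kcnk5*, the alkaline-activated TASK-2 (0.18, 95% interval -0.30 to 0.66), did not pass either. *Kcnk13*, which encodes THIK-1, was separate between genotypes by a small margin (0.14, adjusted p = 0.177), with wild-type arrays from 5.88 to 5.95 and knockout arrays from 6.001 to 6.09. It passed with the methods' *t*-test (adjusted p = 0.0312).

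The ZG markers listed for comparison were lower in knockout arrays, as *Kcnk9* was. Of 12 measured, 11 were lower and none higher, and their mean level lay between 8.86 and 9.21 in wild-type and between 6.98 and 7.27 in knockout arrays. That count was partly fixed in advance. The paper had already reported *Cyp11b2*, *Agtr1b*, *Nr4a3*, *Atp2b3*, *Vsnl1*, *Dab2*, *Wnt4* and *Lef1* as lower in these same arrays. The part of ZG cells in the decreases of potassium channel genes was not tested. In whole adrenals fewer cells of a type and less RNA per cell cannot be told apart. Chromaffin markers, 12 measured, had 1 higher and none lower, with mean levels of 8.71 to 8.91 in wild-type and 8.58 to 9.02 in knockout arrays.

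**Figure D2:**
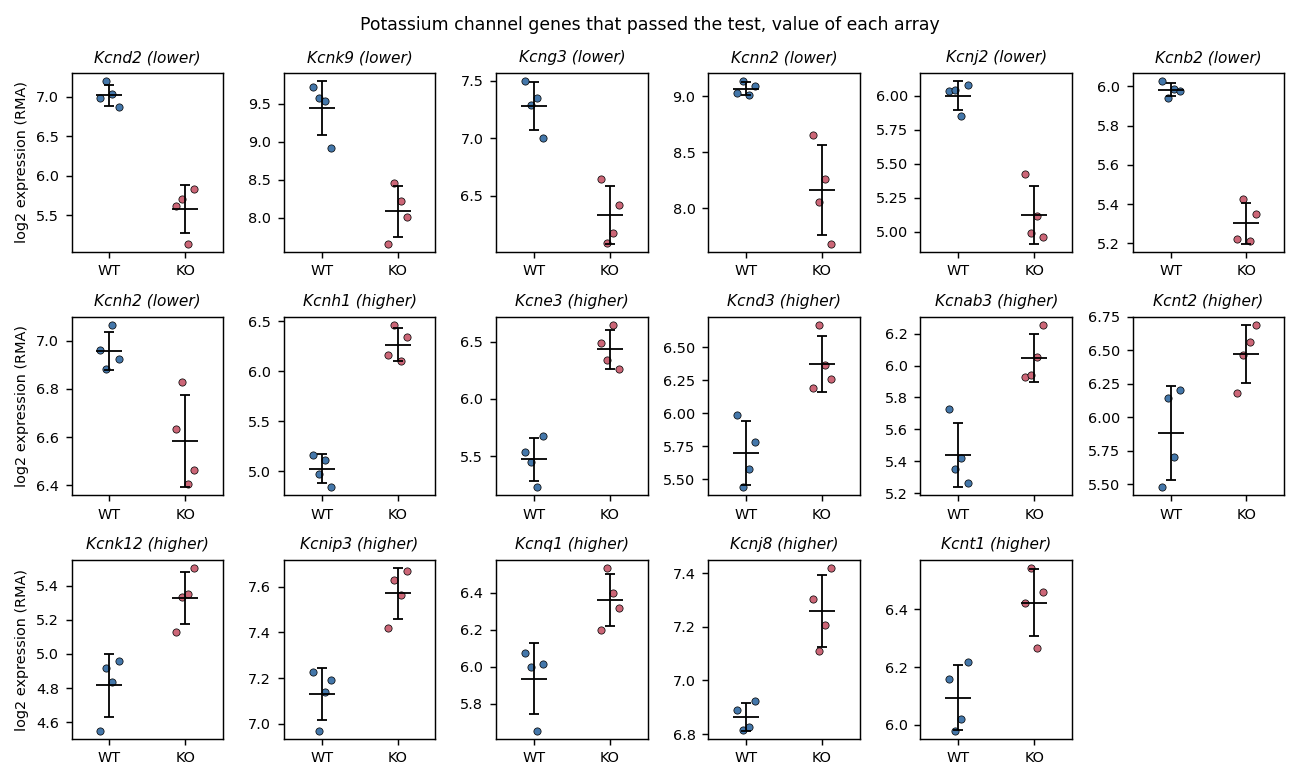
Log2 expression (y axis, RMA scale, a separate axis per gene) of the 17 potassium channel genes that passed, with each array as a point and the mean and SD of 4 arrays per genotype in black. The genotypes are separate in 16 genes, and in *Kcnt2* the lowest knockout array (6.18) lies below the highest wild-type array (6.20).

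A-type channels of the Kv4 family open and inactivate quickly and delay the next spike. Of their 3 pore subunits, 1 fell, 1 rose and 1 did not pass. *Kcnd2*, the Kv4 subunit with the largest decrease of all 89 genes, read 6.98, 7.19, 7.03 and 6.87 in wild-type and 5.62, 5.71, 5.14 and 5.83 in knockout arrays. The highest knockout array lay far below the lowest wild-type array. *Kcnd2* fell by 1.44 (SE 0.14, 2.72-fold, adjusted p = 9.11e-05).

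*Kcnd3*, the paralogue of *Kcnd2*, read 5.99, 5.44, 5.58 and 5.78 in wild-type and 6.19, 6.67, 6.36 and 6.26 in knockout arrays. It rose by 0.67 (SE 0.13, 1.59-fold, adjusted p = 0.00732). The call was lost with the methods' *t*-test (adjusted p = 0.0565) and with unequal variances (0.075). *Kcnd1*, the remaining Kv4 pore subunit, did not pass (0.030, 95% interval -0.16 to 0.21), nor did *Kcnd3os*, an RNA transcribed opposite *Kcnd3* (0.062).

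KChIP proteins bind the inner end of Kv4 channels and raise their number at the surface. *Kcnip3*, which encodes KChIP3, read 7.23, 6.97, 7.14 and 7.19 in wild-type and 7.42, 7.63, 7.57 and 7.67 in knockout arrays, and rose by 0.44 (SE 0.082, adjusted p = 0.00493). The other genes of this kind did not pass: *Kcnip1* had a difference of 0.43 (SE 0.14, adjusted p = 0.067), *Kcnip2* 0.29 (adjusted p = 0.0856) and *Kcnip4* 0.092. *Kcnip1* reached an adjusted p of 0.0299 without wild-type replicate 1.

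The annotated starts of *Kcnd2* and *Kcnd3* are shown because these paralogues moved oppositely, and those of *Kcng3* and *Kcnj8* because they hold a match to the short cAMP response element (TGACG, or CGTCA on the other strand), the core of the site bound by CREB, a PKA substrate. Windows of 300 bases are printed 5′ to 3′ on the gene's strand, from RefSeq on GRCm38.p6, with that match in capitals. *Kcnd2* lies at chr6:21215096-21215395 on the plus strand, *Kcnd3* at chr3:105451640-105451939 on the plus strand, *Kcng3* at chr17:83631846-83632145 on the minus strand and *Kcnj8* at chr6:142571565-142571864 on the minus strand.
Kcnd2: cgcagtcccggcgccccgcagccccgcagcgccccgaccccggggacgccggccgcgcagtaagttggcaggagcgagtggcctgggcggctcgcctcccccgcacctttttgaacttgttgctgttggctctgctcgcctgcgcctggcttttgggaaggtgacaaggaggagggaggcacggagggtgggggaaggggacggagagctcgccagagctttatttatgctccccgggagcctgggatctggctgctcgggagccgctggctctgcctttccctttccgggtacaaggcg
Kcnd3: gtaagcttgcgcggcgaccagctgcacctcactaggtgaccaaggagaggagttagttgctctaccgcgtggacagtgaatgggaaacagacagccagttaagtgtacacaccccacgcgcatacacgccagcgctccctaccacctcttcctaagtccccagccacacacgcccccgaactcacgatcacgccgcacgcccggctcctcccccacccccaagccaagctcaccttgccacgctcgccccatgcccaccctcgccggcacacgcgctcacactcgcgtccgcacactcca
Kcng3: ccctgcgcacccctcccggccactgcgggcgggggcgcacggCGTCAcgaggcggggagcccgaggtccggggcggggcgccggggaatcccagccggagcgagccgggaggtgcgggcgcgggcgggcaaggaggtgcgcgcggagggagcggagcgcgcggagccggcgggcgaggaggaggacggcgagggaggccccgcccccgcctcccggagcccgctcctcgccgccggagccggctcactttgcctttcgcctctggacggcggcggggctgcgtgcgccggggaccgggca
Kcnj8: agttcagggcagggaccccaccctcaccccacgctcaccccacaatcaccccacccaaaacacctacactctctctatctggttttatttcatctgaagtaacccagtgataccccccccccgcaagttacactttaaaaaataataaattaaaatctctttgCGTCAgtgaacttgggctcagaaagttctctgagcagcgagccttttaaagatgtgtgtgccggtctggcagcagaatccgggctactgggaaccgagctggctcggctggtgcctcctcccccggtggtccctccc
Such windows were on hand for 69 of the 89 genes, 94 windows in all, and for 11 of the 17 that passed. The short element was found on either strand in 18.1% of the 94 windows and in 20.8% of all 32851 windows. Among the genes that passed it was in 1 window each of *Kcng3*, *Kcnj8* and *Kcnt2*. The full element (TGACGTCA), which contains the short one, was in 1.79% of all windows and in 0 of the 94. The element of SF1 (CAAGGTCA, or TGACCTTG on the other strand) was in 1.56% of all windows and in 1 of the 94, that of *Kcnf1*. A match here is a run of letters and not a bound site.

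Delayed rectifiers of the Kv2 family repolarise the cell after a spike, and electrically silent subunits such as *Kcng3* change their gating when they join. *Kcnb2*, the Kv2 pore gene measured here, read 6.02, 5.94, 5.99 and 5.98 in wild-type and 5.22, 5.43, 5.21 and 5.35 in knockout arrays. The spread within each genotype was small against the gap. *Kcnb2* fell by 0.68 (SE 0.069, 1.60-fold, adjusted p = 1.37e-04).

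*Kcng3* fell further, by 0.95 (SE 0.14, 1.93-fold, adjusted p = 0.00104). Its wild-type arrays read 7.49, 7.29, 7.35 and 6.997 and its knockout arrays 6.64, 6.09, 6.17 and 6.42. *Amigo1*, an adhesion protein that travels with Kv2 channels and was on the list of partners, fell too (-0.30, SE 0.067, adjusted p = 0.0124), from 6.90 to 6.98 in wild-type to 6.56 to 6.76 in knockout arrays. The other 9 silent subunits did not pass. *Kcns3* came closest (-0.27, SE 0.080, adjusted p = 0.0528) and was separate between genotypes, with wild-type arrays from 6.32 to 6.49 and knockout arrays from 6.02 to 6.28. *Kcnf1* was separate too, in the other direction and in a dim range (0.33, adjusted p = 0.0807). *Kcng4* also lay higher without overlap (0.28, adjusted p = 0.0823), with wild-type arrays from 5.39 to 5.52 and knockout arrays from 5.55 to 6.01.

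Calcium-activated channels link calcium entry to repolarisation. *Kcnn2*, which encodes the small-conductance channel SK2, read 9.02, 9.13, 9.01 and 9.09 in wild-type and 8.65, 8.05, 8.26 and 7.68 in knockout arrays. Wild-type arrays lay close together, whereas knockout arrays were spread out. *Kcnn2* fell by 0.90 (SE 0.16, 1.87-fold, adjusted p = 0.00435). With the methods' *t*-test and unequal variances, which allows each genotype its own spread, it did not pass (adjusted p = 0.138). *Kcnn3*, which encodes SK3, did not pass (0.12, 95% interval -0.25 to 0.49).

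*Kcnma1* encodes the pore of the large-conductance BK channel, and mice without it have high aldosterone. It read 9.75, 9.49, 9.62 and 9.02 in wild-type and 8.33, 8.86, 9.16 and 9.13 in knockout arrays. Wild-type replicate 4 lay below knockout replicates 3 and 4. *Kcnma1* did not pass (-0.60, SE 0.20, adjusted p = 0.0777, 95% interval -1.04 to -0.16), and without wild-type replicate 4 it did (-0.75, adjusted p = 0.0306). A second cluster of the gene, with a mean of 4.21, had a difference of -0.016.

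Of the accessory subunits of BK measured, 1 passed. *Lrrc55*, a leucine-rich repeat protein that eases the opening of BK channels and is on the list of partners, read 7.38, 6.90, 7.11 and 6.59 in wild-type and 4.89, 4.95, 5.54 and 5.75 in knockout arrays. It fell by 1.71 (SE 0.21, 3.27-fold, adjusted p = 4.72e-04). Its relatives *Lrrc26* (-0.020), *Lrrc38* (-0.12) and *Lrrc52* (-0.15) did not pass. *Kcnmb1*, the BK beta subunit of smooth muscle, did not pass (-0.010, 95% interval -0.25 to 0.23), nor did the other 3 beta subunit genes.

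Sodium-activated channels, relatives of BK that open as sodium accumulates, had small increases. *Kcnt1*, which encodes Slack, read 6.16, 5.98, 6.02 and 6.22 in wild-type and 6.42, 6.54, 6.26 and 6.46 in knockout arrays, and rose by 0.33 (SE 0.083, adjusted p = 0.0241). *Kcnt2*, which encodes Slick, read 5.48, 6.15, 5.71 and 6.20 in wild-type and 6.18, 6.47, 6.56 and 6.69 in knockout arrays, and rose by 0.59 (SE 0.17, adjusted p = 0.0398). Only *Kcnt2*, of the 17, overlapped between genotypes. The call of *Kcnt1* was lost without wild-type replicate 2 (adjusted p = 0.0705) or 3 (0.0695) or knockout replicate 2 (0.067) or 4 (0.0681), and that of *Kcnt2* without wild-type replicate 1 (0.0845) or 3 (0.105) or knockout replicate 2 (0.0768), 3 (0.0974) or 4 (0.109). Neither passed with the methods' *t*-test (adjusted p = 0.0614 for *Kcnt1* and 0.147 for *Kcnt2*).

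**Figure D3:**
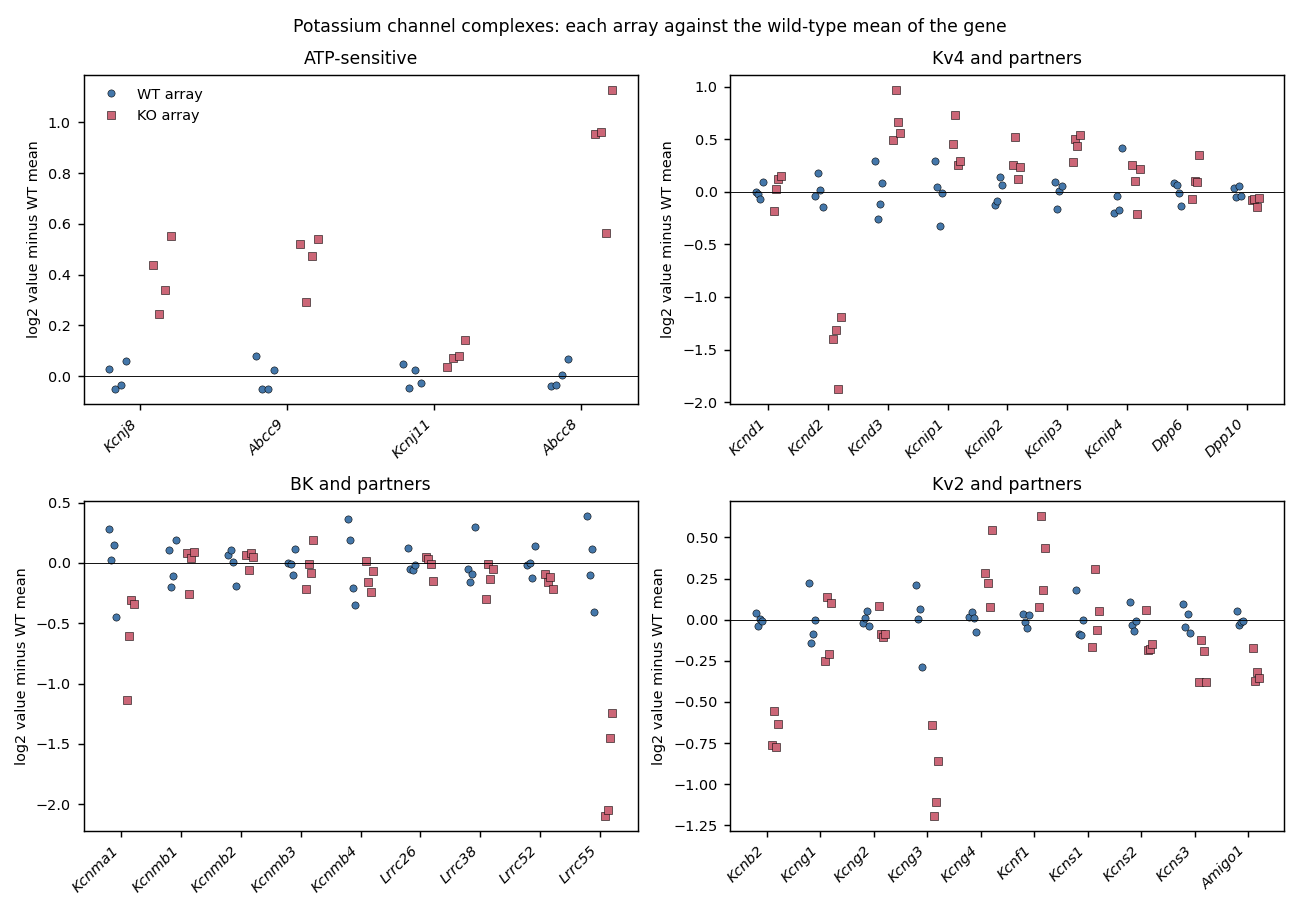
Each array's log2 value minus the wild-type mean of the same gene (y axis) for genes of 4 kinds of channel complex, with wild-type arrays as circles and knockout arrays as squares. *Kcnj8*, *Abcc9* and *Abcc8* lie above 0 in all knockout arrays, *Kcnd2* and *Kcnd3* lie on opposite sides, and *Lrrc55*, *Kcng3* and *Kcnb2* lie below 0.

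Inward rectifiers carry potassium near rest. *Kcnj2*, which encodes the strong rectifier of the Kir2 family, read 6.04, 6.04, 5.85 and 6.08 in wild-type and 5.43, 4.99, 5.12 and 4.96 in knockout arrays. It fell by 0.88 (SE 0.11, 1.84-fold, adjusted p = 3.78e-04) and 3 of its knockout arrays lay under the olfactory receptor limit. *Kcnj16*, its neighbour on chromosome 11, did not pass (-0.075, adjusted p = 0.576). Of 10 pairs of neighbouring Kcn genes on the RefSeq gene order, none had both genes called. Only 1 pair, *Kcnj16* and *Kcnj2*, had 1 gene called, so the count cannot show whether neighbours changed together. Genes from the list of partners were not paired. *Kcnj8* and the partner *Abcc9*, both on chromosome 6 and both higher in knockout arrays, were therefore not counted. The same holds for *Kcnj11* and the partner *Abcc8*, both on chromosome 7, of which only *Abcc8* passed.

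ATP-sensitive channels combine a Kir6 pore with a sulphonylurea receptor and open when cellular ATP falls. *Kcnj8*, a Kir6 pore gene typical of vessels, read 6.89, 6.82, 6.83 and 6.92 in wild-type and 7.30, 7.11, 7.21 and 7.42 in knockout arrays, and rose by 0.39 (SE 0.077, adjusted p = 0.00672), a call lost with the methods' *t*-test and unequal variances (adjusted p = 0.0733). Both receptor genes, which were on the list of partners, rose with it. *Abcc9* rose by 0.46 (SE 0.074, adjusted p = 0.00226), from 8.19 to 8.32 in wild-type to 8.53 to 8.78 in knockout arrays. *Abcc8* rose by 0.90 (SE 0.11, 1.87-fold, adjusted p = 3.79e-04), from 5.75 to 5.85 in wild-type to 6.35 to 6.92 in knockout arrays. The other Kir6 pore gene, *Kcnj11*, did not pass (0.082, 95% interval -0.051 to 0.22).

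Vascular markers were read beside *Kcnj8* and *Abcc9*. Of 9 endothelial markers, 5 were higher and none lower, and their mean level was 8.60 to 8.75 in wild-type and 8.83 to 9.05 in knockout arrays. None of 9 markers of smooth muscle and pericytes passed, with mean levels of 7.04 to 7.38 and 7.07 to 7.47. The part of these cells in the increases was not tested.

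*Kcnj5* encodes a G protein-gated rectifier that is mutated in human aldosterone-producing adenomas. It read 5.14, 4.97, 5.14 and 4.84 in wild-type and 4.89, 4.78, 5.02 and 5.08 in knockout arrays. All 8 values fell below the olfactory receptor limit, and no difference was detectable at this brightness (-0.080, adjusted p = 0.658, 95% interval -0.29 to 0.13). *Kcnj3*, a partner pore of the same type, was separate between genotypes in a dim range too and did not pass (0.31, adjusted p = 0.0683). A second cluster of *Kcnj3*, with a mean of 3.60, had a difference of -0.064.

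Channels of the EAG and ERG group gave the largest increase of all 89 genes. *Kcnh1*, which encodes the slowly activating channel EAG1, read 5.17, 4.98, 5.11 and 4.84 in wild-type and 6.16, 6.46, 6.10 and 6.34 in knockout arrays. Wild-type values lay below the olfactory receptor limit, and all knockout values lay well above it. *Kcnh1* rose by 1.24 (SE 0.10, 2.37-fold, adjusted p = 3.44e-05).

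*Kcnh2*, which encodes the channel that repolarises the heart, read 6.96, 6.88, 7.07 and 6.93 in wild-type and 6.64, 6.83, 6.41 and 6.46 in knockout arrays, with knockout replicate 2 close to the wild-type range. It fell by 0.38 (SE 0.096, adjusted p = 0.0265). This call was lost without wild-type replicate 1 (adjusted p = 0.0561) or 3 (0.0762), and without knockout replicate 3 (0.0738) or 4 (0.0803), and with the methods' *t*-test (0.0846). The other 6 genes of the group did not pass, with log2 fold changes from -0.30 to -0.00013.

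*Kcnq1* encodes a slow delayed rectifier, and the single-span subunit encoded by *Kcne3* holds it open at rest in epithelia. Both rose. *Kcne3* read 5.53, 5.45, 5.23 and 5.67 in wild-type and 6.49, 6.34, 6.65 and 6.26 in knockout arrays, and rose by 0.96 (SE 0.11, 1.95-fold, adjusted p = 2.92e-04). *Kcnq1* read 6.07, 6.0, 5.66 and 6.02 in wild-type and 6.20, 6.53, 6.40 and 6.32 in knockout arrays, and rose by 0.43 (SE 0.11, 1.34-fold, adjusted p = 0.0224). The gap between the genotypes was wider for *Kcne3* than for *Kcnq1*, whose call was lost without knockout replicate 2 (adjusted p = 0.061) or 3 (0.0593), and with the methods' *t*-test (0.0857).

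*Kcne1*, the subunit that slows *Kcnq1* channels in the heart, did not pass (-0.28, SE 0.10, adjusted p = 0.107), and neither did the other 3 *Kcne* genes. Of the other Kv7 genes, *Kcnq3* had a difference of -0.33 (adjusted p = 0.123) and *Kcnq5* of -0.078.

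Kv1 channels start to open close to the resting voltage. None of the 8 Kv1 genes passed. *Kcna4*, an inactivating Kv1 channel, had steady values in knockout arrays, 10.34, 10.34, 10.44 and 10.41, whereas wild-type arrays read 9.64, 10.62, 10.48 and 10.24. Its difference was 0.14 (SE 0.17, adjusted p = 0.69, 95% interval -0.25 to 0.52). *Kcnab3*, a cytoplasmic beta subunit of Kv1 channels, did rise, by 0.61 (SE 0.11, 1.52-fold, adjusted p = 0.00446). It read 5.73, 5.35, 5.42 and 5.26 in wild-type and 5.93, 5.94, 6.05 and 6.25 in knockout arrays, and its call was lost with the methods' *t*-test and unequal variances (adjusted p = 0.0596). *Kcnab1* (0.20, adjusted p = 0.478) and *Kcnab2* (-0.037) did not pass. The 3 Kv3 genes measured, which encode fast-spiking channels, had log2 fold changes from -0.13 to -0.054 and did not pass.

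Genes outside the Kcn symbols were counted from prepared lists, beside 7.35% higher and 6.17% lower among all clusters. Of 19 measured partners of potassium channels, 2 rose (*Abcc8* and *Abcc9*) and 2 fell (*Lrrc55* and *Amigo1*). Of 18 measured genes for calcium, sodium and chloride channels, pumps and cotransporters that also set membrane voltage, 6 fell and none rose. That list shares *Cacna1h* and *Atp2b3* with the ZG markers.

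**Figure D4:**
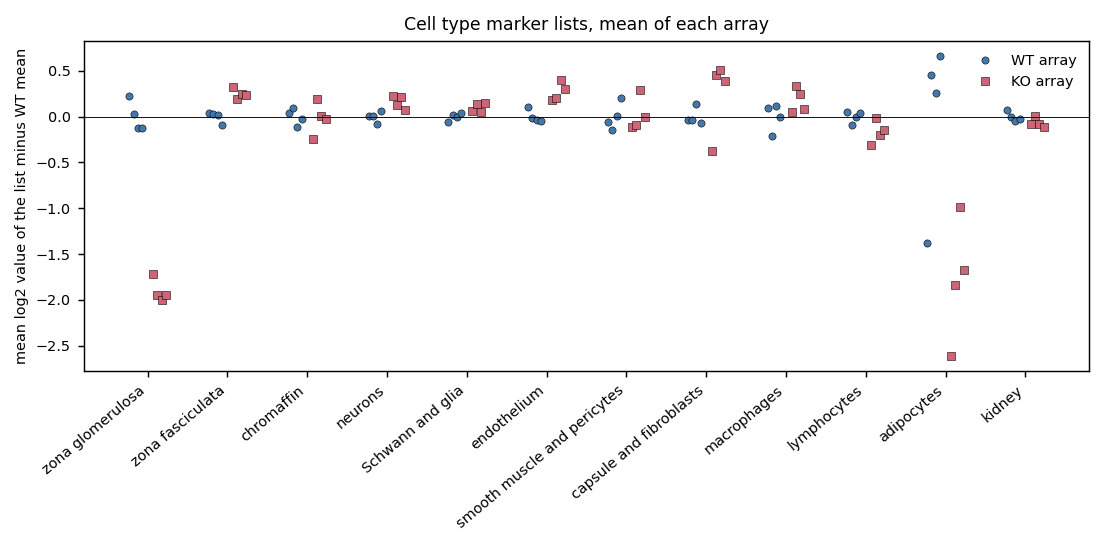
Mean log2 value of each cell type marker list in each array, minus the wild-type mean of the list (y axis), with wild-type arrays as circles and knockout arrays as squares. ZG markers are lower in all knockout arrays (6.98 to 7.27 against 8.86 to 9.21), and chromaffin markers overlap between genotypes.

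Other tissue markers also differed between arrays. Of 11 adipocyte genes 8 were lower in knockout adrenals, with mean levels of 7.91 to 9.95 in wild-type and 6.67 to 8.30 in knockout arrays, and wild-type replicate 1 was the lowest of its genotype. Of 9 zona fasciculata genes 4 were higher and 1 lower, with mean levels of 11.81 to 11.95 and 12.09 to 12.22. Of 9 capsule and fibroblast genes 2 were higher and 1 lower, and of 10 neuronal, 7 Schwann cell and glial and 9 macrophage genes 1 each was higher. None of 7 lymphocyte, 7 kidney or 1 red blood cell genes passed. The part of these cells in the changes of potassium channel genes was not tested.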

How the data were processed

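Whole adrenals of 4 wild-type and 4 knockout mice were profiled on 1 array each. The authors normalized the arrays by RMA with the affy package for R (version not given in the sources used here), and the deposited values are log2 expression per transcript cluster. A second deposited table holds only the authors' own fold changes and adjusted p-values and was not used.

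Of 28067 clusters, 22822 had 1 gene symbol in the platform annotation and were tested, 1703 had several symbols and 3542 had none given. Of the 22822, 22679 had a gene ID in the RefSeq table, which changed no symbol. Clusters with several symbols, 4 of them with a Kcn symbol, were not read.

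Knockout was compared with wild-type in limma 3.58.1 (lmFit, then eBayes, on R 4.3.3; a two-sided test without block), with Benjamini–Hochberg adjustment over all 22822 clusters. Tables were made with Python 3.11.15 and pandas 2.3.3. With 4 arrays per genotype, the number of arrays limits precision. The labels call the arrays biological replicates and name no individual animals.

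The members and gene lists were chosen with earlier results of these data known. All genes that passed were named, with a fixed set of genes known in adrenal cells whether or not they passed. *Kcnd1*, *Kcnd3os*, *Kcnip1*, *Kcnip2*, *Kcnip4*, *Kcns3*, *Kcnf1*, *Kcng4*, *Kcnk13*, *Kcnj3*, *Kcnj11*, *Kcnj16*, *Kcnq3*, *Kcnq5*, *Kcnab1* and *Kcnab2*, and the 7 partners, were named after their values were seen. Replicate numbers in the labels were tested as pairs. Other tests, normalizations and filters, and each array left out in turn, were tried as alternatives.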

Additional observations from a re-analysis of the deposited data

Results flagged for a closer look

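In groups of 4 arrays, an array was singled out where its gap to the nearest other array was too large a part of the group's range by Dixon's test at the 95% level. This was the case in 9 of 192 groups from 96 genes (4.69%), and chance alone would flag about 1 group in 20. None of the 9 belonged to a gene that passed the comparison of genotypes.

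Among knockout arrays, *Kcnk5* was low in replicate 3, at 6.97, with the others between 7.65 and 7.71. *Kcnmb1* was low in replicate 2 (5.86, others 6.15 to 6.20), *Kcna6* in replicate 1 (5.40, others 5.64 to 5.67) and *Kcnc1* in replicate 3 (4.14, others 4.42 to 4.45). *Kcnj6* was high in replicate 2 (5.72, others 5.28 to 5.31), *Kcng2* in replicate 1 (5.34, others 5.15 to 5.17) and *Kcns2* in replicate 1 (6.01, others 5.78 to 5.81).

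Among wild-type arrays, *Kcnj1*, which encodes a renal potassium channel, was high in replicate 4, at 5.02, with the others between 4.26 and 4.33. *Kcnh3* was high in replicate 1 (5.78, others 5.65 to 5.66).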

How the results depend on the processing

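All 17 potassium channel genes that passed kept their direction under every alternative, and 8 (*Kcnb2*, *Kcnd2*, *Kcne3*, *Kcng3*, *Kcnh1*, *Kcnip3*, *Kcnj2* and *Kcnk9*) also passed wherever they were tested. With Student's *t*-test, the methods' test with equal variances, 6 potassium channel genes were higher and 6 lower (11 of the 17 kept), and over all clusters 1197 were higher and 920 lower. With Welch's *t*-test (unequal variances) 3 were higher and 5 lower (8 of the 17 kept), so that the lower genes were then the more numerous, over all clusters 710 were higher and 492 lower, and 2 partners passed. The methods also ask for a log2 fold change beyond 1, and this cut was added here to the limma test rather than to their *t*-test. It left 1 higher and 2 lower, 246 higher and 212 lower over all clusters, and 1 partner. The paper reports more genes in each direction under its own rule, which joins its *t*-test to this cut. The reruns of the *t*-test were not checked against the paper's adjusted p-values. They cannot show which genes its own test passed. Leaving out 1 array gave 7 to 12 potassium channel genes higher and 6 to 9 lower, 1315 to 1584 and 1041 to 1310 over all clusters, 4 partners each time and 6 to 8 other voltage genes. Same-numbered arrays did not deviate together (correlations -0.040 to 0.042, 0 of 4 over 0.1). This gave no sign of pairing by number, but it cannot exclude that the numbers mark littermates. With the replicate block 12 were higher and 7 lower, *Kcnh2* was lost (adjusted p = 0.0615) and *Kcnip1*, *Kcnj3* and *Kcnq3* were gained. Without clusters below the median intensity 33 of the 89 genes were left, 8 higher and 6 lower, with *Kcnip1* and *Kcns3* gained. With a weight for each array *Kcnf1*, *Kcnma1* and *Kcns3* were gained. Centring arrays on their medians gained *Kcnf1* and *Kcnip1*, and quantile normalization again gained *Kcnf1* and *Kcns3*. Among the genes named above, *Kcnf1*, *Kcng4*, *Kcnip1*, *Kcnj3*, *Kcnk2*, *Kcnma1* and *Kcns3* were each gained when a certain array was left out. Of the 89 genes 32 were dim in both genotypes, where changes are hard to detect.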
